A study of Mus musculus with 32 samples.

Results

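The CpGs described here are those that were nearly free of methylation on average over the mouse retinas of a spaceflight study. They were selected on their measured values: autosomal CpGs with the reads of both strands summed, with at least 10 reads in each of 16 reduced representation bisulfite sequencing (RRBS) libraries, and with an unweighted mean methylation under 2% over the 16 libraries. Of 1045775 autosomal CpGs read at this depth in every library, 512986 met the rule, which is 49.1%; with chromosome X, 1071432 CpGs were read. Another 201123 autosomal CpGs were partly methylated (2% to under 80%) and 331666 were highly methylated (80% or more). Since the level chose these CpGs, their low level, and what follows from it, is a description and not a test.

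The spaceflight group comprised 8 female C57 BL/6J mice that were kept for 37 days on the International Space Station in animal enclosure modules, and the ground control group 8 female C57 BL/6J mice kept on Earth in the same kind of habitat. All were 21 weeks old by the labels, and the labels name no other treatment. Each library came from 1 retina of 1 mouse, so that every value is a mix over rods, which make up most of the mouse retina, and all other retinal cell types. Libraries are named by mouse: M21 to M27 and M29 flew (left eyes of M21, M22 and M29, otherwise right eyes), and M31 to M37 and M39 were ground controls (left eyes of M31, M32 and M39, otherwise right eyes). The carcasses were frozen and the eyes dissected after thawing, which both groups share. Summed over all CpG cytosines, a library held between 59572205 and 105298542 reads. The median reads per unmethylated CpG ranged from 37 in M36 to 69 in M32, with 866 reads summed over all libraries as the median. The labelled tissue was checked in RNA libraries of the same series: the rod genes Gnat1 and Sag averaged 9578 and 1562 FPKM, a read density scaled to transcript length and library size, while the lens gene Cryaa ranged from 0.107 to 15011 FPKM between libraries and the pigment epithelium gene Rpe65 from 52.4 to 572 FPKM. The rod markers were high in every RNA library, and the lens level differed widely between them. The cornea and skin gene Krt5 also differed widely, from 0 to 580 FPKM.

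In mammalian genomes most CpGs are methylated, and methylated CpGs mutate readily, so CpGs have become rare outside CpG islands. Islands are GC-rich stretches, mostly at gene starts, that escape methylation in nearly all cell types. Proteins with a CXXC domain, such as CFP1 and KDM2B, bind unmethylated CpGs and bring histone-modifying complexes to them. An unmethylated start is therefore common to genes in use and to silent genes held by Polycomb proteins, such as many developmental regulators. RRBS cuts DNA at CCGG with the enzyme MspI and reads the ends of the resulting fragments, which favours such regions.

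The sequences below show what the unmethylated CpGs look like in the genome (GRCm38, forward strand, unmethylated CpGs in capitals, CpGs not read in all libraries in lower case). The first is the 240 bases with the most unmethylated CpGs within the run at Zfp777, a zinc finger gene, and stands for the long runs at gene starts; the other two are runs far from any annotated start and outside islands.
Zfp777, chr6:48048108-48048347: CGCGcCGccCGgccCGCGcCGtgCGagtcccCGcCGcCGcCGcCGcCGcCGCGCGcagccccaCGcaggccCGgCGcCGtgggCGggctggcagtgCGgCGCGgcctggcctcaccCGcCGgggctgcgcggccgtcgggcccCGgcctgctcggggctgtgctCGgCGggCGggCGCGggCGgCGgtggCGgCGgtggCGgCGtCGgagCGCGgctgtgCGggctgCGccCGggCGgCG
Intergenic run nearest to Gm52919, chr6:127330348-127330505: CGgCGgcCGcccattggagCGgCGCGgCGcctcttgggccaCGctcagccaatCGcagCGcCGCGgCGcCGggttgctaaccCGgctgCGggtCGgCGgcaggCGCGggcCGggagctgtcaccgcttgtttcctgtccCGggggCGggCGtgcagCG
Intergenic run nearest to Gnai2, chr9:107644609-107644813: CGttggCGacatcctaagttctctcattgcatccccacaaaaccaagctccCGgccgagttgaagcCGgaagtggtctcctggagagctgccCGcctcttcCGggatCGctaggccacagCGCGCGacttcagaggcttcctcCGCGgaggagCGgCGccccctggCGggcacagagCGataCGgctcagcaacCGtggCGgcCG
The Zfp777 stretch held 47 unmethylated CpGs in 240 bases, the run nearest to Gm52919 held 25 in 158 bases, and the run nearest to Gnai2 held 20 in 205 bases. All shared CpGs within these 3 stretches were unmethylated.

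Unmethylated CpGs lay where CpGs are dense and transcripts begin. Of the 512986, 466206 (90.9%) were in CpG islands, 31535 (6.15%) in the 2000 bp shores around them and 15245 (2.97%) elsewhere. The same shares in islands were 24.1% for partly methylated and 3.96% for highly methylated CpGs. Promoters, meaning the sequence up to 1000 bp from a start, held 468676 (91.4%), exons 17617, introns 13789 and intergenic sequence 12904. The region within 200 bp of a start held 51.9% of unmethylated CpGs, and the median distance to the nearest start was 189 bp, against 4385 bp for partly and 15524 bp for highly methylated CpGs. Within 50 bp of an unmethylated CpG the genome held a median of 12 CpGs, the CpG included, against 4 and 3 in the other classes, and the sequence within 100 bp was 71.1% GC in the median, against 56.2% and 51.7%. An unmethylated CpG lay within a CCGG site in 19.5% of cases, against 53.3% for highly methylated CpGs.

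Read the other way, 88.3% of the 527847 shared autosomal CpGs in islands were unmethylated, 38.3% of those in shores and 3.50% of those in neither. The share was 1.39% where a CpG had no other CpG within 50 bp and rose with each step of density to 95.6% where there were 15 or more. With distance from a start it went from 91.4% under 100 bp to 84.6% at 250 to 500 bp, 35.6% at 1000 to 2000 bp and 4.201% beyond 5000 bp. The share was close to even between autosomes, from 46.4% on chromosome 7 to 52.0% on chromosome 19. Chromosome X is outside the rule: there only 250 of 10621 shared island CpGs were under 2%, which is 2.35%. All the mice were female.

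**Figure D1:**
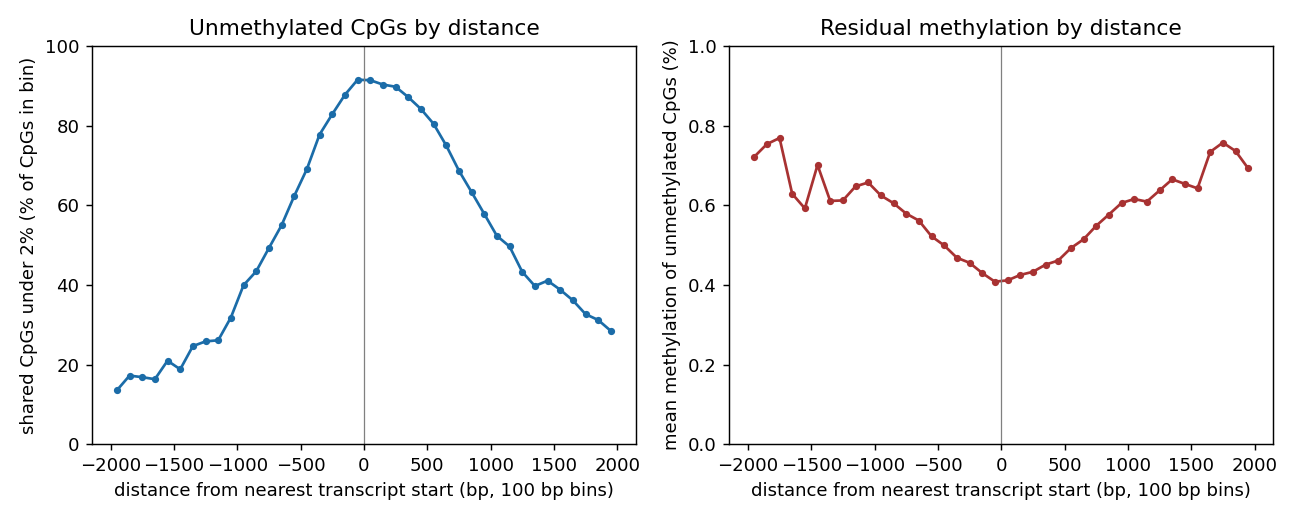
Share of shared autosomal CpGs that were under 2% (left, in percent) and mean methylation of those CpGs over 16 libraries (right, in percent), in bins of 100 bp by distance from the nearest transcript start, with negative distances upstream. The share is highest at the start and the level of the unmethylated CpGs themselves is lowest there, with a slower decline downstream than upstream.

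The level within the selection was far under its limit. The median mean level was 0.370%, with 25% of the CpGs under 0.201% and 25% over 0.612%, and 462580 (90.2%) were under 1%. No methylated read was found in any library at 44659 CpGs (8.71%); at the median depth of 866 reads a count of 0 allows a level of up to 0.346%, for counting error only. A methylated read in all 16 libraries was found at 63 CpGs. The limit at 2% cut no gap: 2768 CpGs lay at 1.9% to under 2% and 2524 at 2% to under 2.1%. The last CpG inside, chr7:7299158-7299159 in an island 267 bp from the start of Mir5620, ranged from 0% to 8.57% over the libraries. The first CpG outside, chr11:75178717-75178718 in an island 91 bp from the start of Ovca2, ranged from 0% to 6.67%.

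The remaining methylation varied with position. It averaged 0.444% in islands, 0.651% in shores and 0.744% elsewhere. It was 0.410% within 100 bp of a start, 0.534% at 500 to 1000 bp and 0.777% beyond 5000 bp. From isolated to dense CpGs the mean went down in each step, from 0.819% to 0.4003%. CpGs within CCGG, the cut site, averaged 0.530% ± 0.0234 (SD over 16 libraries) and the others 0.450% ± 0.0135, and the first were higher in every library. At the 222464 CpGs read at least 10 times on both strands in every library, the forward strand averaged 0.464% and the reverse strand 0.464%.

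Unmethylated CpGs formed runs, a run being a stretch of successive shared CpGs that were all under 2%. There were 29228 runs with a median of 5 CpGs and a mean of 17.6, and 8102 of them (27.7%) were single CpGs. Most CpGs were in the longer runs: 11496 runs of 10 or more, 39.3% of the runs, held 90.8% of all unmethylated CpGs, 532 runs of 100 or more held 12.98%, and the median CpG lay in a run of 49. Highly methylated CpGs formed runs with a median of 4 and a mean of 6.57, and partly methylated CpGs runs with a median of 2 and a mean of 3.02. Successive shared CpGs may lie far apart, since RRBS reads only part of the genome. With runs broken at gaps over 300 bp, the mean run was 15.3 CpGs for unmethylated and 2.88 for highly methylated CpGs. With runs broken wherever a CpG of the genome had not been read in all libraries, these means were 8.88 and 2.61, and the longest unmethylated run held 105 CpGs.

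**Figure D2:**
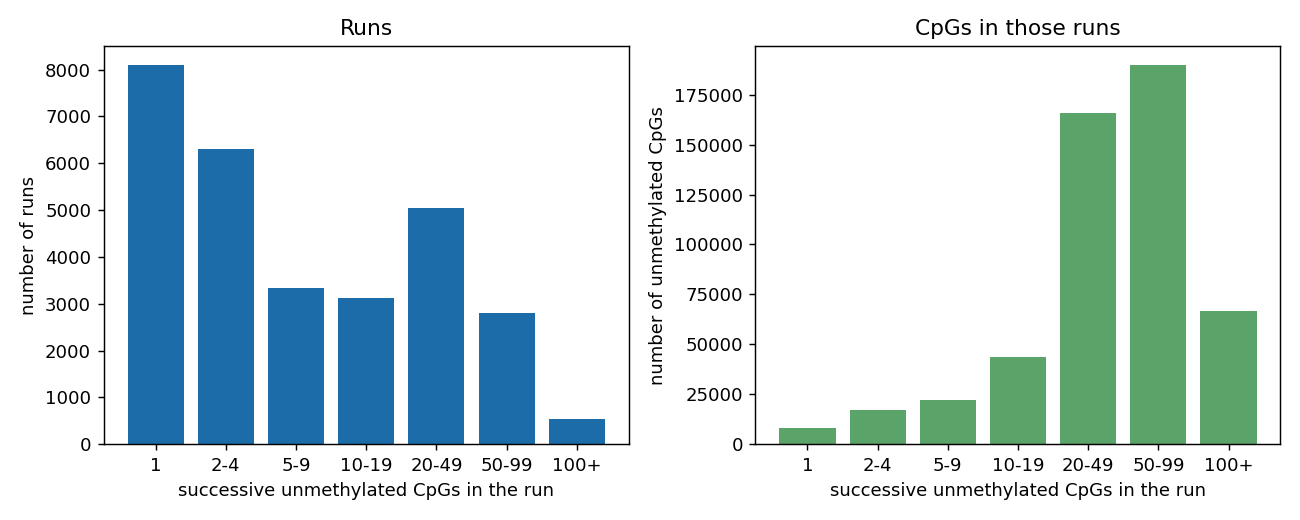
Number of runs of unmethylated CpGs (left) and number of CpGs in them (right) by the number of successive unmethylated CpGs in the run. Single CpGs are the most frequent runs, while runs of 20 to 99 CpGs hold most of the CpGs.

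Around the runs of 10 or more, the next shared CpG had a median level of 2.60% when it lay within 50 bp (7499 edges), 10.5% at 200 to 1000 bp (1984 edges) and 88.5% at 1000 to 5000 bp (3741 edges). Inside the same runs the mean level fell from 0.565% at the outermost CpG to 0.470% at the fifth and 0.376% from the eleventh inward. Both the selection and the way a run ends use these levels.

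The 10 longest runs held 198 to 247 CpGs over 1311 to 3283 bp, each within 1 CpG island and at the start of a protein-coding gene. The longest, chr18:84085118-84088322, covered the starts of Tshz1, a zinc finger transcription factor of development, and Zadh2. It had 247 of the 316 CpGs that the genome holds there and a mean of 0.334%, with 0.204% in the lowest and 0.536% in the highest library. The next were at Phf21b (244 CpGs, mean 0.394%, chr15:84853484-84856766), Zswim6 (239, 0.373%, chr13:107888617-107891889), Phf13 (214, 0.329%, chr4:151994985-151996907) and Cpeb2 (213, 0.371%, chr5:43232455-43235526). Cpeb2 encodes a binding protein of messenger RNA tails. The run of 211 CpGs at chr18:75366548-75369369 covered the start of Smad7, an inhibitor of TGF-β signalling, at a mean of 0.386%. The kinase gene Dyrk1a followed with 206 CpGs at 0.320%. Arid2 and Arid1b, both encoding subunits of SWI/SNF chromatin remodellers, had runs of 205 CpGs (0.355%) and 201 CpGs (0.315%), and Zfp777 one of 198 CpGs (0.384%). Over these 10 runs the mean of a library stayed between 0.146% and 0.552%, and the group means of spaceflight and ground control differed by less than 0.1 points in each run.

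Outside islands and more than 5000 bp from any annotated start, 5082 unmethylated CpGs remained, 1.496% of the 339755 shared CpGs there. Of these 3036 were intergenic, 1463 intronic and 583 exonic, and their mean level was 0.901%. They included 1835 runs that lay wholly in such sequence, 484 of them with 3 or more CpGs. The 5 longest included the 2 intergenic runs printed above. The run nearest to Gm52919, 9187 bp upstream of its start, averaged 0.525% over 25 CpGs, from 0.203% in the lowest to 0.909% in the highest library. The run nearest to Gnai2, a G protein subunit gene, lay 9218 bp upstream of its start and averaged 0.315% over 20 CpGs, from 0.0617% to 0.664%. A run of 23 exonic CpGs, chr13:91370965-91371362, lay 17120 bp downstream of the nearest start, that of A830009L08Rik, at 0.261%. A run of 21 intergenic CpGs, chr19:44388351-44388700, lay 19358 bp downstream of the start of Scd1, which encodes a desaturase of fatty acids, at 0.310%. Another 21 intergenic CpGs, chr3:52196259-52196590, lay 16171 bp upstream of Gm30074 at 0.500%.

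Windows reaching 150 bp to both sides of these distal CpGs were searched on both strands for short motifs, and none overlapped another of its set. The GC box GGGCGG, bound by SP factors, was found in 28.3% of 1581 windows, against 9.94% of 35668 windows around distal partly methylated CpGs, 6.50% of 84698 around distal highly methylated CpGs and 67.1% of 26047 around unmethylated CpGs in islands. The core AGGGGGC of the CTCF motif was in 13.9%, 6.00%, 3.57% and 15.4% of the same 4 sets. The photoreceptor homeodomain site TAATCC was in 11.95%, 12.1%, 9.77% and 3.35%, and the ETS site CCGGAAG in 9.61%, 9.58%, 9.72% and 11.4%. The sets differ in base composition, with a mean GC content of 54.7%, 51.1%, 49.2% and 67.4%. A match is a description of the letters and not a binding site.

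Of 13206 autosomal protein-coding genes with at least 5 shared CpGs within 1000 bp of a start, 8588 (65.03%) had an unmethylated promoter (at least 90% of its shared CpGs under 2%), 3481 a mixed one and 1137 (8.61%) a methylated one (fewer than 10%). Median expression, as the mean FPKM over 16 RNA libraries, was 11.1 for unmethylated, 4.50 for mixed and 0.376 for methylated promoters, and 93.0%, 75.8% and 38.1% of their genes reached 1 FPKM. Of the 7618 genes with an unmethylated promoter and an FPKM value, 122 were under 0.1 FPKM and 8 were listed at 0. By their source names, 9 of the RNA libraries came from spaceflight and 7 from ground control mice. They included M30, which had no RRBS library here, and lacked M39. The RNA comes from whole retinas, in which fewer cells of a type and less RNA per cell cannot be told apart. The part of lens, pigment epithelium, cornea or skin RNA in these values was not tested.

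Within unmethylated promoters, the remaining methylation was lower in steps from silent to highly expressed genes. The unmethylated CpGs of genes at 10 FPKM or more had a median level of 0.358% (4063 genes), those of genes at 1 to 10 FPKM 0.382% (3021 genes), at 0.1 to 1 FPKM 0.463% (412 genes), and under 0.1 FPKM 0.562% (122 genes). In mixed promoters the same 4 medians were 0.485%, 0.602%, 0.825% and 0.929%. This is a pattern over genes, which are not independent replicates. The genes under 0.1 FPKM also had fewer shared CpGs per promoter, 35.5 in the median against 44 at 10 FPKM or more, and the part of CpG density in the pattern was not tested.

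Among chosen lists of genes, 21 of 24 housekeeping promoters were unmethylated and 3 mixed; over the list the median promoter level was 0.395%. Of those unmethylated, Gapdh, an enzyme of glycolysis, was the most expressed (2490 FPKM) and Tbp, the TATA-binding protein, the least (35.9 FPKM). Over all 13206 genes the share of unmethylated promoters was the 65.03% given above. Of the 12 clock genes 9 were unmethylated, among them Clock, Per2, Per3 and Nr1d1, and 3 were mixed. Of 14 genes of the DNA methylation machinery with a promoter read, 11 were unmethylated, from the TET enzyme Tet3 (31.5 FPKM) to Uhrf1, which guides maintenance methylation and was at 0.159 FPKM; Kdm2b, which binds unmethylated CpGs, was mixed, with 87.8% of its promoter CpGs under 2%.

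Of 11 rod gene promoters with at least 5 shared CpGs, 3 were unmethylated, 2 mixed and 6 methylated. The 3 were Nrl, the transcription factor that sets rod fate (100% of CpGs, 498 FPKM), Rom1, a protein of outer segment discs (100%, 1049 FPKM) and Gnb1, a transducin subunit used in many tissues (96.3%, 1466 FPKM). The promoters of Nr2e3, Prph2, Abca4, Grk1 and Slc24a1 held no unmethylated CpG at all. Nr2e3, a nuclear receptor of rods, averaged 49.2% over its promoter CpGs, and Prph2, a protein of outer segment discs, 14.5%. Of 3 cone gene promoters read, none was unmethylated and 2 were mixed.

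Of 52 developmental regulators, 22 promoters were unmethylated, 29 mixed and 1, Hand1, methylated (44.8%); 26 of the 52 genes were under 0.1 FPKM. Among the unmethylated, Barx1 and En1 were listed at 0 FPKM and Shh, a signalling protein, was highest at 2.52 FPKM. Of 37 Hox promoters, 6 were unmethylated (among them Hoxa10, Hoxb4 and Hoxd13), 31 were mixed and none was methylated, and all 37 genes were under 0.1 FPKM. Their median promoter level of 1.54% was under the limit but above the 0.395% of housekeeping promoters. Of 14 germline gene promoters, 13 were methylated, with a median of 91.5% over the list. Of 20 imprinted genes, some of which carry methylation on 1 parental copy of the promoter, 12 promoters were methylated, with 48.4% at Peg3 and 49.1% at Mest. The median over those 20 was 34.5%, and Grb10, Dlk1 and Rasgrf1 were unmethylated.

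Unmethylated promoters were found for 10 of 20 amacrine, horizontal and ganglion cell genes (Nefl, a neurofilament, was the most expressed at 150 FPKM), for 5 of 11 Müller glia genes (Clu, 807 FPKM, was the highest) and for 2 of 7 bipolar genes (Prkca and Isl1). Of 6 genes of other tissues with a promoter read, none was unmethylated. Not all of the 6 were silent in the RNA libraries: Krt5, Krt10 and Krt12 averaged 50.6, 31.3 and 8.57 FPKM. Their highest libraries were at 580, 356 and 39.5 FPKM, while Fgb averaged 0.0164 FPKM.

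**Figure D3:**
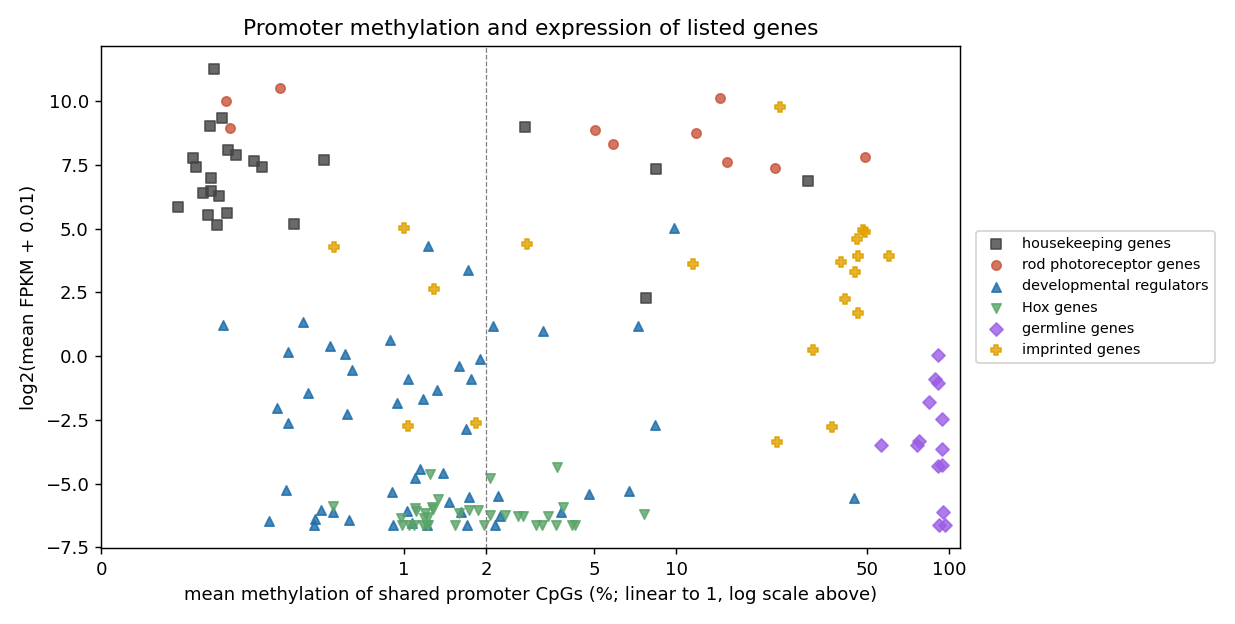
Mean methylation of shared promoter CpGs over 16 libraries against expression, log2 of the mean FPKM plus 0.01, for genes of 6 lists (2 listed genes are not shown), with the 2% limit dashed. Hox genes lie at the bottom on both sides of the limit, housekeeping genes mostly at the upper left, germline genes at the lower right, and most rod genes at the upper right.

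The level of unmethylated CpGs was next set beside that of mitochondrial CpGs, which are held to carry little or no methylation and served as the background. The 12 mitochondrial CpGs that reached 10 reads in each library together had 24606 to 152058 reads per library, and their methylation averaged 0.543% ± 0.173 (SD, n = 16). It was uneven between CpGs: 10 of them averaged 0.292% to 0.4002%, while those at positions 3333 and 3401 averaged 0.781% and 2.29%. Over the unmethylated CpGs the mean was 0.466% ± 0.0145 (SD, n = 16), from 0.443% in M34 to 0.505% in M21, which is a narrow range beside the mitochondrial one of 0.345% to 0.997%. The difference from the mitochondrial level was -0.0776 points ± 0.164 (SD), with 5 libraries over and 11 under the mitochondrial level. As percent of all reads summed, it was 0.474% for unmethylated and 0.440% for mitochondrial CpGs, a difference of 0.0335 points ± 0.0636 (SD), with 12 libraries over and 4 under. Set against the 10 mitochondrial CpGs that reached 50 reads in each library, the difference was -0.111 points ± 0.0910 (SD), with 2 libraries over and 14 under. The difference was thus smaller than the spread between libraries in the first pair of comparisons and larger in the last, and its sign turned with the way of averaging. Across the 16 libraries, as a description of points that share library and depth, Pearson's r between both means was 0.678 and Spearman's rho 0.556; with percent of reads on the mitochondrial side they were 0.461 and 0.347.

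**Figure D4:**
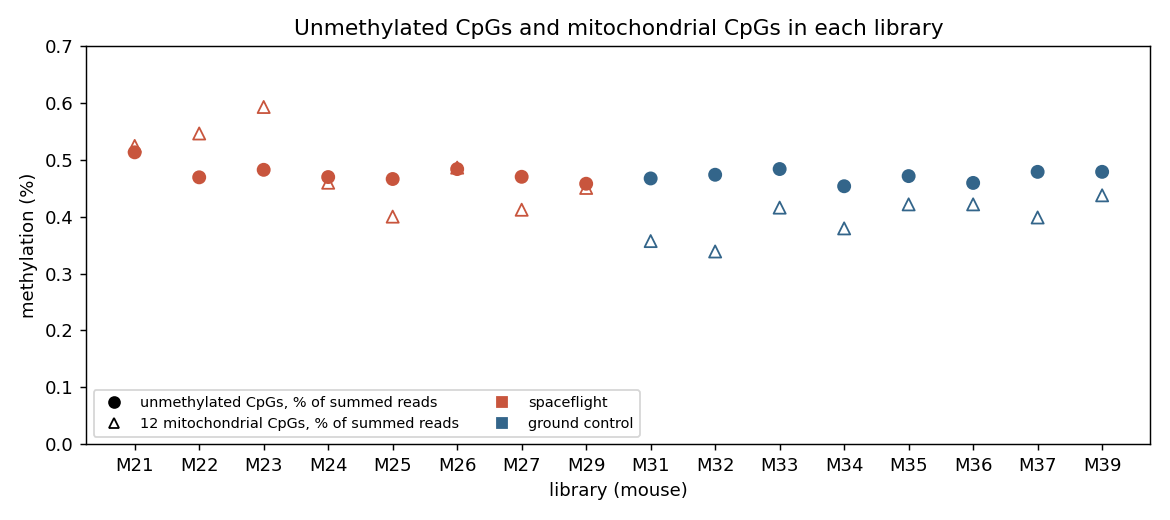
Methylation in each library as percent of the reads summed over all unmethylated CpGs (circles) and over 12 mitochondrial CpGs (triangles), spaceflight in red and ground control in blue. The circles lie between 0.453% and 0.513% in all libraries, while the triangles range from 0.339% to 0.593% and tend to be higher after spaceflight.

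The mitochondrial level itself differed between groups. It averaged 0.634% ± 0.200 (SD, n = 8) after spaceflight, from 0.432% to 0.997% with a median of 0.578%, and 0.452% ± 0.0739 (SD, n = 8) in ground controls, from 0.345% to 0.573% with a median of 0.462%. The groups overlapped, and the difference of 0.182 points had p = 0.0174 in an exact permutation test over 12870 splits (two-sided). As percent of summed reads the difference was 0.0877 points (exact permutation p = 0.00451), and over the 10 mitochondrial CpGs that reached 50 reads in each library it was 0.113 points (exact permutation p = 0.0103); these alternatives were added after the values were seen. Of the 12 CpGs, 10 were higher on average after spaceflight, but 3 made up 78.4% of the summed difference. These were position 3401 at 0.664 points, 5726 at 0.589 points and 6113 at 0.456 points, with as few as 13 reads in a library at 5726 and 24 at 6113. The other 9 differed by -0.0562 to 0.228 points, and among the 10 CpGs with 50 reads position 3401 alone gave 58.6% of the summed difference. In right eyes alone (5 against 5) the difference was 0.152 points at an exact permutation p of 0.119, and 3 against 3 left eyes cannot give a p under 0.1. Mitochondrial reads numbered 24606 to 63314 in spaceflight and 48629 to 152058 in ground control libraries, and their part in the difference was not tested.

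Unmethylated nuclear CpGs did not show a group difference of that size. Their mean was 0.469% ± 0.0170 (SD, n = 8) after spaceflight, with 0.453% in the lowest library, a median of 0.463% and 0.505% in the highest. In ground controls it was 0.462% ± 0.0114 (SD, n = 8), with 0.443%, 0.465% and 0.477%. The groups overlapped and the difference of 0.00744 points was smaller than either SD. It rested largely on M21, without which it was 0.00227 points. With each library's mitochondrial level subtracted, the difference was -0.174 points, most of which is the mitochondrial group difference of 0.182 points with its sign turned. As percent of summed reads it was -0.0819 points, and against the 10 mitochondrial CpGs with 50 reads -0.106 points. The share of unmethylated CpGs without any methylated read was 79.0% ± 2.13 in spaceflight and 80.6% ± 3.13 in ground control libraries (SD, n = 8 each), beside a median of 54.8 and 51.5 reads per CpG as group means.

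Spaceflight and ground control were compared at each CpG by a logistic model of the methylated share of reads with group as the term, an overdispersion factor and an F-test, adjusted by the Benjamini-Hochberg method over all 1071432 shared CpGs. At an adjusted p of 0.05, 0 unmethylated CpGs were called, as were 0% of all shared CpGs; the lowest adjusted p was 0.865. At an unadjusted p of 0.05, 11223 unmethylated CpGs (2.19%) were higher and 10470 (2.04%) lower after spaceflight, against 1.95% and 2.14% of all shared CpGs. These shares were near the background, which includes the unmethylated CpGs themselves. Among partly methylated CpGs 1.70% were higher and 2.44% lower, and among highly methylated CpGs 1.78% and 2.05%. Without the overdispersion factor, 28 unmethylated CpGs passed an adjusted p of 0.05. The count over all shared CpGs was not made under this setting, so the 28 have no background to be read against. Most of these CpGs offered little to test, since 339447 (66.2%) had fewer than 5 methylated reads over all 16 libraries. Reads were also simulated for 50000 unmethylated CpGs at their real depths and mean levels, with no further spread between mice. An added 2 points in 8 libraries gave an unadjusted p under 0.05 in the logistic model at 67 of 100 CpGs. An added 5 points did so at 97 of 100, but any CpG with that change would exceed the 2% limit and not be selected. Of 49800 unchanged CpGs, 1381 (2.77%) had an unadjusted p under 0.05, counted over both directions together. The observed 2.19% and 2.04% are each for 1 direction, so neither alone is to be set against the 2.77%. No simulated CpG passed the adjustment, which was over the 50000 simulated CpGs and not over all 1071432. The 0 unmethylated CpGs called above therefore cannot show that none of them changed. Spread between mice, as in real libraries, was not simulated.

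The CpGs with the lowest unadjusted p in the logistic model, 5 in each direction, had at most 1 methylated read in 1 of the groups. They were picked for their p, so their values describe them and none passed the adjustment. An exact permutation p given for them reuses the library values that picked them and is not a second line of support. The CpG with the lowest p among those higher after spaceflight, chr14:78307852-78307853, lay in an island 191 bp inside Tnfsf11, the ligand RANKL of bone turnover. It had 16 methylated of 608 reads in spaceflight libraries, which ranged from 0% to 8.51% with a median of 1.92%, and 0 of 490 in ground controls, which allows a level of up to 0.612%. Its difference was 2.63 points of summed reads, and an exact permutation test of the library values over 12870 splits gave p = 0.00140 before any adjustment (two-sided), with an adjusted p of 0.865 in the logistic model. The next 4 lay at Shox2, Grk6, Hoxa11 and Fbxo43, with differences of 1.57 to 3.06 points and 0 methylated reads in ground controls. Shox2 and Hoxa11 are homeobox genes of limb and body patterning. Among those lower after spaceflight, the CpG chr1:79450635-79450636, intergenic and 10609 bp upstream of Scg2, a secretory granule protein, had 1 methylated of 633 reads in spaceflight and 18 of 594 in ground control libraries. The latter ranged from 0% to 6.12% with a median of 3.03%, and 6 of 8 had a methylated read (exact permutation p = 0.00699 before adjustment). The next 4, at Pcolce2, Asxl2, Scube1 and Agap2, had 0 methylated reads in spaceflight libraries and 11 or 12 in ground controls.

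For more reads per test, CpGs were summed by island. Of 13973 autosomal islands with at least 5 shared CpGs, 9586 (68.6%) were unmethylated, with at least 90% of their shared CpGs under 2%, and 1880 (13.5%) held no unmethylated CpG. Unmethylated islands had a median of 35 shared CpGs and 128 methylated reads over all libraries. The median difference between spaceflight and ground control was 0.00856 points, 90% of the islands lay between -0.168 and 0.185 points, 2 islands differed by 1 point or more and none by 2 points. The 2% limit on the mean over all libraries bounds these differences, so the lack of large ones follows in part from the selection. By the same logistic model on reads summed per island, adjusted over 14380 islands, 0 unmethylated islands were called at an adjusted p of 0.05 (0% of all islands; lowest adjusted p 0.963). At an unadjusted p of 0.05, 287 unmethylated islands (2.99%) were higher after spaceflight and 128 (1.34%) lower. Over all 14380 islands, the unmethylated ones included, 393 (2.73%) were higher and 311 (2.16%) lower. Without the overdispersion factor 164 unmethylated islands passed an adjusted p of 0.05. The count over all islands was not made under this setting, so the 164 have no background to be read against.

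The island with the lowest p among those higher after spaceflight was at the start of Eef1g, a translation elongation factor (chr19:8966870-8967358, 11 CpGs). It had 15 methylated of 2380 reads in spaceflight, from 0% to 1.41% with a median of 0.434%, and 0 of 3132 in ground controls, which allows up to 0.0958%. The next, at Slc22a23, a transporter (chr13:34344130-34345588, 105 CpGs), was at 0.485% ± 0.104 in spaceflight and 0.316% ± 0.0668 in ground controls (SD, n = 8 each), with 6 of 8 spaceflight libraries above the highest control. Islands at Bves, Vps13a and one 4754 bp from Mir6944 followed, with differences of 0.183 to 0.3498 points of summed reads. Among those lower after spaceflight, the island at Lamp1, a lysosomal membrane protein (chr8:13159102-13159807, 48 CpGs), was at 0.233% ± 0.0666 in spaceflight, from 0.153% to 0.360% with a median of 0.226%. In ground controls it was at 0.533% ± 0.189, from 0.270% to 0.773% with a median of 0.543%, and 6 of 8 ground controls were above the highest spaceflight library (exact permutation p = 0.00124 before adjustment, n = 8 each). Islands near Hif3a, Atf1, Slc7a14 and Zfp59 followed, with -0.153 to -0.709 points of summed reads. None of these 10 islands passed the adjustment, and they too were picked for their p. The exact permutation p at Lamp1 reuses the values that picked it and is not a second line of support.

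Some unmethylated CpGs gained methylation in 1 library alone. A gain was a CpG at 10% or more with at least 3 methylated reads in 1 library while all the others were under 5%. There were 2279 gains, 0.444% of the unmethylated CpGs, and 1139 of them rested on exactly 3 methylated reads. Islands held 84.7% of them (90.9% of all unmethylated CpGs) and promoters 83.7% (91.4% of all). Reads at gains were few, with library medians of 26.5 to 38, against 37 to 69 at all unmethylated CpGs. The highest gain reached 30%, which the selection bounds, since a mean under 2% over 16 libraries keeps every library under 32%.

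Gains per library numbered 32 to 205 in spaceflight, with a median of 91.5, and 71 to 366 in ground controls, with a median of 171.5. The means were 109 ± 59.0 and 176 ± 90.9 (SD, n = 8 each), and the groups overlapped. M31, a ground control, had the most gains at 366, while the next were M36, M21 and M37 with 206, 205 and 199, and M24 had the fewest. Without M31 the ground control mean was 148 ± 52.2. The median reads per unmethylated CpG were 62 in M31 and 37 in M36, the lowest of all libraries. CpGs with 10 or more reads numbered 1145105 in M23, the fewest, 1281663 in M31 and 1605078 in M32, the most. The part of depth in the number of gains was not tested.

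**Figure D5:**
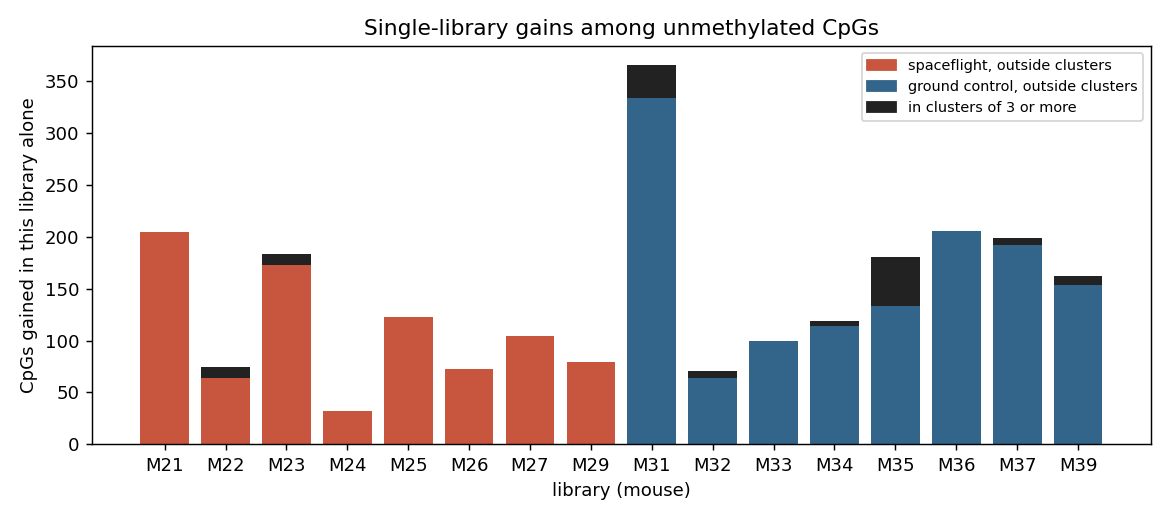
Unmethylated CpGs that gained methylation in 1 library alone, by library, with those in clusters of 3 or more neighbouring CpGs in black. M31 stands above all others at 366 gains, and the 33 and 11 CpGs of 2 clusters make up most of the black part of M35.

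In 22 places 3 or more gains of the same library followed each other with at most 200 bp from one to the next. These clusters held 129 gains, 5 clusters were in spaceflight and 17 in ground control libraries, 8 of them in M31, without which ground controls held 9, and none of the nearest genes recurred in a second library. Their median span was 42 bp, and 18 of 22 were within 100 bp, where a read is 75 bases long. The following stretches show 2 of them, with the gained CpGs in capitals (GRCm38, forward strand).
M35, first 300 bases of the cluster at 4930526I15Rik, chr9:124424001-124424300: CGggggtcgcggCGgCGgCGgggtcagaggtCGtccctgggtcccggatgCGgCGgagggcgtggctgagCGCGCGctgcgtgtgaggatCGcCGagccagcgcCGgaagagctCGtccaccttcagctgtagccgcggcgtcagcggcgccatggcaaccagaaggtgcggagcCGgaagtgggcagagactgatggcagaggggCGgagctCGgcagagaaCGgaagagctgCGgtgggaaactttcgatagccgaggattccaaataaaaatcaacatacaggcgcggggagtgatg
M31, cluster at Irf1, chr11:53770000-53770056: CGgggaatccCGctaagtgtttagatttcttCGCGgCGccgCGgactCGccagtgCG

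The largest cluster stood in M35, a ground control, at the start of 4930526I15Rik (chr9:124424001-124424626), with 33 gains among 65 unmethylated CpGs over 626 bp. The 33 CpGs averaged 13.1% in M35, from 10.2% to 19.4% with a median of 66 reads, and 0.277% over the other libraries, of which the highest was at 0.365%. All 65 CpGs averaged 10.02% in M35 and 0.306% in the others. Methylated reads were found on both strands, 188 of 1290 on the forward and 74 of 752 on the reverse strand. A second cluster of M35 lay 1212 bp further along, with 11 of 13 CpGs gained (chr9:124425838-124425942), a mean of 11.8% in M35 and 0.256% in the others, and again methylated reads on both strands.

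The other clusters were small. At Irf1, an interferon regulatory factor, all 8 gained CpGs of M31 stood at the same 15.4%, 4 of 26 reads each, within 57 bp. M31 had 208 reads of these CpGs on the forward strand and 0 on the reverse strand, which was thus not seen. The other libraries averaged 0.174%. At Brd2, a bromodomain protein, M32 gained 7 of 20 CpGs over 243 bp at 13.5% (chr17:34118555-34118797), and another library reached 4.23% there. At Baz1a, a chromatin remodeller subunit, M22 gained 7 CpGs at 10.8% with 21 methylated reads. All 21 were among the 111 reads of the reverse strand, while 0 of 84 reads of the forward strand were methylated. The rest of the 10 largest were at Ext2 (M34, 5 CpGs, 13.1%), Hrh1 (M31), Mcm4 (M22), Usp31 (M37) and Mycn (M39), with 4 CpGs each at 13.8% to 15.2%. Of the 11 clusters with at least 10 reads on both strands, 8 had methylated reads on both. Neighbouring CpGs of 1 read are methylated or not in the same molecule, so a cluster on 1 strand holds few independent observations.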

How the data were processed

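RRBS libraries were made from 100 ng of retinal DNA cut with MspI, converted with bisulfite and read as single reads of 75 bases. Per the labels and the study's methods, the authors used Trim Galore 0.4.5 for trimming and Bismark for alignment to GRCm38, took out duplicates by random tags and wrote call tables for methylKit. The deposited tables give the read count of each CpG cytosine, with the strands apart, and the percent of those reads that were methylated or not. The authors gave RNA as FPKM after Trimmomatic and TopHat2, which is used here only as a mean over 16 RNA libraries, since the labels of 1 RNA library disagree on its group; 2 FPKM columns without an RNA sample here were not used, and 22 repeated symbols were left out.

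Methylated reads were recovered from count and percent and rounded to whole reads, and the strands of each CpG were added. All positions were CpGs in the GRCm38 reference, whose NCBI gene models gave starts, exons and introns. CpG islands were built from the sequence by a running sum (17 for a CpG, -1 for any other dinucleotide), keeping stretches of 200 bp or more whose GC content reached 50% and whose CpGs were at least 0.6 of the number expected from base content. Single CpGs and islands were compared by a logistic model with a McCullagh-Nelder overdispersion factor not under 1 and an F-test, with Benjamini-Hochberg adjustment over all features; the fit was tested on simulated data and against statsmodels 0.14.6 (Python 3.11.15, scipy 1.17.1). Mitochondrial levels and the named CpGs and islands were compared by exact permutation. Labels do not number replicates in common between groups; each library is 1 mouse. Intervals and limits cover counting error only.

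Members, gene lists and tests were chosen with earlier results of these data known. Named by rule were the 10 longest runs, the 10 largest gain clusters, the 5 longest distal runs, the 5 CpGs and 5 islands with the lowest p in each direction, the CpGs next to the limit, and the listed genes with the highest and lowest expression. Other genes named from the lists were chosen after their values were seen. Alternatives were the read minimum, the limit, other averaging, stricter islands, other tests, eye as a covariate, and leaving out each library. Results for some listed genes are not reported here.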

Additional observations from a re-analysis of the deposited data

Results flagged for a closer look

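In 33 groups of 8 values examined by Dixon's criterion, 3 samples stood apart from their group, where chance alone is expected to set apart about 1 group in 20. M31 had 366 single-library gains, while the next ground control had 206 and the lowest 71. M31 also held 8 clusters of gains, against 3 in the next ground control. In the island at Zfp59, M27 was at 0.896% of reads, while the next spaceflight library was at 0.484% and the lowest at 0.136%. Causes were not tested.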

How the results depend on the processing

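Of the alternatives tried, 170 values stayed on the same side of their threshold, within 1.5 times the reported count or within the spread between libraries. Without the overdispersion factor, unmethylated CpGs at an unadjusted p of 0.05 numbered 21075 higher and 20419 lower after spaceflight, and unmethylated islands 635 and 421. By Fisher's exact test on summed reads, which ignores mice, the CpGs were 4754 and 5823. Counts over all shared CpGs and all islands were not made under these tests, so these numbers have no background to be read against. With stricter islands, 210 of 6896 unmethylated islands were higher and 85 lower, beside 287 and 128 of 9586 by the main definition. Gains, whose level the selection bounds at 32%, numbered 23481 at a library level of 5%, 87 at 20%, 1067 with 20 reads in every library and 3726 with 2 methylated reads; M31 had the most and M24 the fewest under each. The group difference of the unmethylated CpGs became -0.174 points once the mitochondrial level was subtracted, which mostly carries over the mitochondrial group difference of 0.182 points. In right eyes alone, added after the data were seen, the mitochondrial difference was 0.152 points with an exact permutation p of 0.119. This was the only alternative in which the mitochondrial call was lost.

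With each library left out in turn, the unmethylated CpGs numbered 512717 to 538425, the group difference was 0.00227 points (without M21) to 0.00977, the residual minus mitochondrial level was -0.0907 to -0.0483 points (the latter without M26), and the mitochondrial group difference was 0.130 to 0.210 points with an exact permutation p of 0.00482 to 0.0434. Higher and lower CpGs ranged from 8883 to 10822 and from 8904 to 11401, higher and lower islands from 241 to 295 and from 107 to 150, and gains, each library's own left out, from 1913 to 2247. The residual minus mitochondrial level changed sign with percent of reads (0.0335 points) and was -0.111 points ± 0.0910 (SD) over mitochondrial CpGs with 50 reads. No paired analysis was possible because the labels give the groups no shared replicate numbers. Of the single CpGs, 66.2% had under 5 methylated reads in all, which follows from both depth and the selected low level.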
